A study of Mus musculus with 10 samples.

Results

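Transcript levels of 7 histone demethylase genes were examined in mouse germinal vesicle (GV) oocytes, fully grown oocytes held at meiotic prophase. The genes are Kdm1a and Kdm1b of the LSD family, Kdm3a and Kdm3b of the KDM3 family, and Kdm4a, Kdm4b and Kdm4c of the KDM4 family. They were chosen by name, and their 10 RefSeq transcript rows are part of a table of 34768 rows and 24453 gene symbols. RNA-seq was made from 10 mice, 1 pool of 16 denuded oocytes per mouse. The 4 mutant mice were Setdb1 f/-; Zp3-cre, with 1 floxed and 1 deleted allele of Setdb1, which encodes an H3K9 methyltransferase, and a Cre recombinase driven by the Zp3 promoter in growing oocytes. Of the 6 controls, 4 were Setdb1 f/+; Zp3-cre, with Cre and 1 allele that cannot be deleted, and 2 were Setdb1 f/- without Cre, with 1 functional floxed allele. The mice were C57Bl/6J, and milrinone in the medium kept the oocytes in meiotic arrest. The age of the mice is not given in the labels used here.

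Methylation of lysine 9 of histone H3 (H3K9) marks silent chromatin and is written by methyltransferases such as SETDB1. KDM3 and KDM4 enzymes remove it with iron, oxygen and 2-oxoglutarate: KDM3 enzymes act on mono- and dimethyl-H3K9, and KDM4A, KDM4B and KDM4C on trimethyl-H3K9 and also on trimethyl-H3K36. KDM1A (LSD1) and KDM1B (LSD2) use flavin adenine dinucleotide and are best known for acting on methyl-H3K4, and KDM1A has also been linked to H3K9. KDM1B is highly expressed in growing oocytes and is known for removing H3K4 methylation there, a step needed for DNA methylation at many imprinted loci.

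Values are RPKM, reads scaled to the length of the transcript and the depth of the library, so levels can be roughly set side by side across genes. The scaling does not remove effects of cDNA amplification or of unstranded reads from overlapping genes. Their size was not tested. Where a symbol had several rows, the row with the highest mean was used. The spacing of low values gave depths of about 45750000 to 72750000 reads, and 10 reads on a transcript of 2 kb were worth 0.109 RPKM in the shallowest library. Setdb1 itself had 4.06, 2.55, 3.32 and 1.31 RPKM in mutants, 28.6, 25.7, 25.1 and 52.5 in f/+; Zp3-cre and 19.9 and 26.3 in f/- controls, so every mutant was below every control. The means were 2.81 ± 1.17 (SD, n = 4) and 29.7 ± 11.5 (n = 6), a difference of -3.20 on the log2(RPKM + 0.5) scale (exact two-sided permutation test, p = 0.0048). The f/+; Zp3-cre libraries were the most alike, with a median absolute log2 difference over genes of 0.147 to 0.255 between any pair. The mutant pairs differed by 0.28 to 0.489 and the f/- pair by 0.545. Summed RPKM of 10 oocyte markers was 4778 to 4915 in mutants, 4785 to 6003 in f/+; Zp3-cre and 5496 to 6306 in f/- controls. Of these 10, 4 had positive log2 differences in mutants against all controls, and the median was -0.148. Nobox, an oocyte transcription factor gene, was the only call and rose (log2 0.42, limma adjusted p = 0.0227), beside 5.33% of all genes called. Against f/-, the only call was Zp1, which was lower in mutants (log2 -0.45, limma adjusted p = 0.0186), beside 4.84% of all genes. Granulosa and cumulus markers (13 genes) summed to 78.1 to 112, 90.8 to 104 and 76.4 to 77.9 in the same order of groups. The sums were led by Serpine2 (mean of all libraries 65.6 RPKM), Nr5a2 (12.9) and Cyp19a1 (7.23). Lhcgr was listed at 0 in every library. The means of all other markers in that list were from 0.0394 (Foxl2) to 1.16 RPKM (Ptgs2), with Fshr at 0.693 and Amh at 0.299. Blood, immune and endothelial markers (11 genes) summed to 22.2 to 42.9, 29.96 to 40.3 and 45.4 to 46.8. These sums were led by Pecam1 (17.6) and C1qb (13.8), with Hbb-b1, Hba-a1 and Cdh5 listed at 0 in every library. The means of all other markers in this list were from 0.00649 (Ptprc) to 2.29 RPKM (Cd68), with C1qa at 0.0199. Theca and stroma markers (11 genes) summed to 0.959 to 3.91, 1.38 to 2.36 and 1.83 to 3.93, with Cyp17a1 and Col3a1 at 0 throughout. The part of these other cells in the results was not tested. Fewer cells of a type and less RNA per cell cannot be told apart in pooled libraries.

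The start regions of the highest genes, Kdm1b and Kdm1a, and of the lowest, Kdm4c, are shown with each CpG in capitals, because CpG-rich starts are typical of widely expressed genes. They come from RefSeq promoter windows on GRCm38.p6 and cover only bases outside the annotated gene, read 5′ to 3′ on the gene's strand. The Kdm1b sequence is chr13:47043249-47043372 on the plus strand, the Kdm1a sequence chr4:136602788-136602973 on the minus strand and the Kdm4c sequence chr4:74242247-74242496 on the plus strand.
Kdm1b: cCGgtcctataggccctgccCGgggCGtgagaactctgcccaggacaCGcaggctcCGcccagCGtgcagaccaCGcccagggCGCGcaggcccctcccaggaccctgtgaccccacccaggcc
Kdm1a: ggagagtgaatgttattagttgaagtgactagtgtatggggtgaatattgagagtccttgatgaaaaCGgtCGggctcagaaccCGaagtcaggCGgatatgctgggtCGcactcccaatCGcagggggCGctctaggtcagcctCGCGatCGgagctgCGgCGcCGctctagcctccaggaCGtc
Kdm4c: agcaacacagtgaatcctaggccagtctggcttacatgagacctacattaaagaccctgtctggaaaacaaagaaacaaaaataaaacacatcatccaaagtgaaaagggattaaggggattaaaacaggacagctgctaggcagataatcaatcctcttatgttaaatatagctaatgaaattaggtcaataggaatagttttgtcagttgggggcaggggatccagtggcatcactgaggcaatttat
The Kdm1b stretch held 9 CpG in 124 bases and the Kdm1a stretch 14 in 186, or 7.26 and 7.53 per 100 bases, and the Kdm4c stretch of 250 bases held 0. Over the whole windows of 300 bases the CpG counts were 26 for Kdm1b and 29 for Kdm1a, against a median of 7 over 32851 windows. A second start of Kdm4c, further downstream, had 28 CpG, so only one of its starts lacked them. The Kdm4a window held 13 CpG, and the 3 windows of Kdm3a held 24, 40 and 0. Windows were matched for 5 of the 7 genes; Kdm3b and Kdm4b were not used for this. Of the motifs searched on both strands, CACGTG (an E-box, in 7.15% of all windows) occurred in the second Kdm4c window only. TATAAA (in 13.62% of windows) and TAATTG (in 8% of windows) occurred in no window of these genes.

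Kdm1b was the most abundant of the 7 transcripts and, of the 6 tested demethylases, the only one whose mutant values all lay above the f/+; Zp3-cre values. Mutant replicates 1 to 4 had 54.9, 42.9, 59.6 and 63.3 RPKM. The f/+; Zp3-cre controls had 37.8, 38.5, 39.5 and 38.5 RPKM and the f/- controls 54.5 and 22.4 RPKM. All 4 mutants were above the narrow f/+; Zp3-cre range, but 1 f/- control was above mutant replicate 2 and the other was below every library. Of all tested genes, 8.86% (1005 of 11338) had all 4 mutants above all 4 f/+; Zp3-cre libraries, and 4.62% had them above all 6 controls, a set with none of the demethylases. The mean was 55.2 ± 8.87 RPKM in mutants and 38.5 ± 10.2 in all controls (SD). The difference of 0.54 on the log2 scale (SE 0.195, 95% interval 0.12 to 0.96, or 1.46-fold, 1.09 to 1.95) had an unadjusted p of 0.015 and did not pass after Benjamini-Hochberg adjustment over all genes (limma adjusted p = 0.136). Against the f/+; Zp3-cre group alone the difference was 0.50 (0.02 to 0.97; limma adjusted p = 0.24), and against f/- it was 0.64 (0.05 to 1.22; 0.194).

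The call for Kdm1b changed with how the 2 f/- libraries entered the fit. When the f/- libraries were left out of the model, the difference of 0.496 passed (limma adjusted p = 0.0319). In that fit 909 of 11338 genes passed, against 604 in the main fit. With libraries weighted by their spread, a difference of 0.552 passed (limma adjusted p = 0.00731), and 1388 of 11338 genes did. So many more genes than Kdm1b passed newly in both settings. In the fit with 3 groups, the difference from f/+; Zp3-cre was 0.496 whether f/- replicate 1 or f/- replicate 2 was left out. It could not move, because it is taken from the mutant and f/+; Zp3-cre means alone. Against f/-, the difference was 1.27 without f/- replicate 1 and 0.00416 without f/- replicate 2. Without f/- replicate 1, the remaining f/- control was lower than f/+; Zp3-cre (log2 -0.772). With 1 f/- library left, these fits assume that it varies like the other groups. They say nothing of the spread within f/-, so only their differences are given. The sign stayed positive in all 22 alternatives for the comparison with all controls, at 0.397 to 0.657, though some of these settings could not change the estimate. The Kdm1b gene (GRCm38, chromosome 13, 47043499 to 47085279, plus strand, 21 exons) shares 505 exon bases at its end (47084775 to 47085279) with Dek on the opposite strand, counted over all annotated exons, and the libraries do not mark strand. Dek, a chromatin protein gene, was at 32.9 to 45.8 RPKM in mutants, 40.7 to 48.0 in f/+; Zp3-cre and 59.1 and 48.5 in f/- controls. The part of Dek reads in the Kdm1b values was not tested.

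Kdm1a, the second of the LSD genes, varied little between libraries. Its values were 15.3, 16.9, 14.9 and 18.9 RPKM in mutants, 16.3, 15.1, 15.8 and 14.3 in f/+; Zp3-cre and 11.7 and 15.2 in f/- controls. The groups overlapped, and f/- replicate 1, the library with the highest control value of Kdm1b, had the lowest value of Kdm1a. The log2 difference of mutants from all controls was 0.16 (95% interval -0.15 to 0.47; limma adjusted p = 0.586). The ratio of Kdm1b to Kdm1a was 2.54 to 4.01 in mutants, 2.32 to 2.69 in f/+; Zp3-cre and 4.67 and 1.47 in the f/- controls. Kdm1a lies on chromosome 4 (136550540 to 136602723, minus strand, 19 exons).

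**Figure D1:**
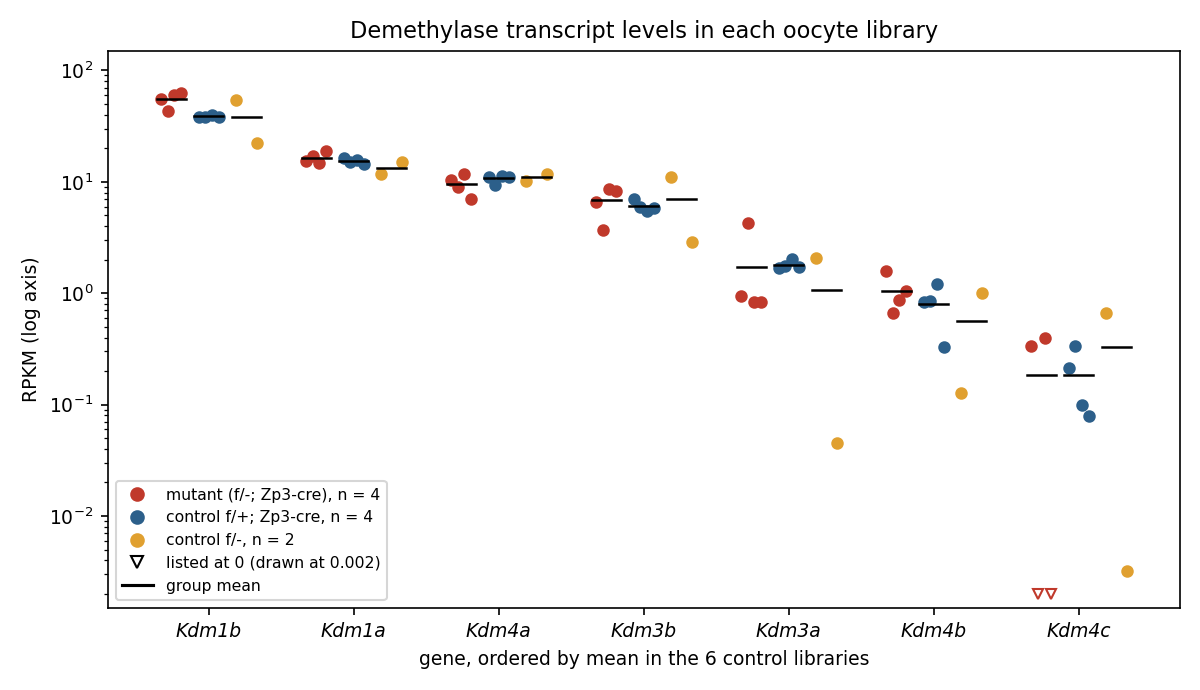
RPKM of each gene in each of the 10 libraries on a log axis, with points by genotype, and Kdm4c values listed at 0 drawn at the lower edge. The f/+; Zp3-cre points lie closest together for Kdm1b, and the f/- pair lies far apart for Kdm1b, Kdm3b, Kdm3a, Kdm4b and Kdm4c.

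The KDM3 genes varied more among mutant libraries and between the f/- libraries than between the means of mutants and all controls. In f/+; Zp3-cre they varied little, with an SD on the log2(RPKM + 0.5) scale of 0.0921 for Kdm3a and 0.144 for Kdm3b. Kdm3b had 6.62, 3.69, 8.66 and 8.27 RPKM in mutants, 7.07, 6.00, 5.50 and 5.82 in f/+; Zp3-cre and 11.1 and 2.89 in f/- controls. The 2 f/- controls held both the highest and the lowest value of all libraries. The log2 difference was 0.11 (95% interval -0.57 to 0.79; limma adjusted p = 0.882). Kdm3b (chromosome 18, 34777047 to 34838660, plus strand, 24 exons) shares 3468 exon bases with Gm26538 on the opposite strand, counted over all annotated exons. Without strand, reads from shared bases cannot be assigned to either gene, and whether those bases lie in the measured row was not tested.

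Kdm3a was lower than Kdm3b in every library but mutant replicate 2. Mutants had 0.949, 4.28, 0.834 and 0.84 RPKM, f/+; Zp3-cre controls 1.69, 1.76, 2.02 and 1.71, and f/- controls 2.09 and 0.0456. Mutant replicates 1, 3 and 4 were below every f/+; Zp3-cre library, and mutant replicate 2 was above all others. The lowest value, in f/- replicate 2, stood for 16 reads, against at least 219 in every other library. The log2 difference was 0.03 (95% interval -1.03 to 1.08; limma adjusted p = 0.984), an interval that covers changes of more than 1 unit either way. Without mutant replicate 2 it was -0.422 and without f/- replicate 2 it was -0.323, and it was also negative with median centring (-0.0321) and quantile normalization (-0.0815). The ratio of Kdm3b to Kdm3a was 2.73 to 4.18 in f/+; Zp3-cre, 0.862 to 10.4 in mutants and 5.33 and 63.4 in f/- controls. Kdm3a lies on chromosome 6 (71588972 to 71632990, minus strand, 27 exons). Its 2 rows share 4746 bases of transcripts of 4816 and 4853 bases, and their values differed by a ratio of 0.986 to 0.996.

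Of the KDM4 genes, 1 was well expressed and 2 were low. Kdm4a had 10.4, 8.92, 11.8 and 7.07 RPKM in mutants, 11.1, 9.45, 11.3 and 11.1 in f/+; Zp3-cre and 10.3 and 11.7 in f/- controls. Mutant replicates 2 and 4 were below every control, and the others lay within or above the control range. The mean of 9.55 ± 2.02 RPKM in mutants against 10.8 ± 0.809 in controls gave a log2 difference of -0.19 (95% interval -0.55 to 0.17; limma adjusted p = 0.577). Kdm4a lies on chromosome 4 (118136957 to 118180043, minus strand, 22 exons) and has a second row of 3279 bases beside the 4663-base row used, with 2939 bases shared. The second row stood at 0.628 to 0.923 of the first across libraries, with means of 6.91 ± 1.39 RPKM (mutants) and 8.47 ± 1.28 (controls).

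Kdm4b had 1.58, 0.667, 0.862 and 1.06 RPKM in mutants, 0.84, 0.857, 1.20 and 0.327 in f/+; Zp3-cre and 0.128 and 1.003 in f/- controls. The groups overlapped, and the lowest mutant was above 2 of the 6 controls. The log2 difference was 0.38 (95% interval -0.37 to 1.13; limma adjusted p = 0.593), and the pseudocount of 0.5 makes it understate a change at these levels. Kdm4b lies on chromosome 17 (56326062 to 56402870, plus strand, 23 exons).

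Kdm4c was near the limit of detection and was not among the tested genes, which needed a mean of at least 0.5 RPKM. It had 0.337 and 0.396 RPKM in mutant replicates 1 and 3 and is listed at 0 in the others; it had 0.214, 0.339, 0.0997 and 0.0784 in f/+; Zp3-cre and 0.66 and 0.00323 in f/- controls. These values stand for 0 to 127 reads, and f/- replicate 2 had 1 read. When no filter was applied, over 19291 genes, the log2 difference was -0.0963 (95% interval -0.685 to 0.493; limma adjusted p = 0.877). Its 2 rows, of 4196 and 4189 bases, share 4045, and the gene lies on chromosome 4 (74242497 to 74405860, plus strand, 22 exons by the annotation used).

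None of the 6 tested genes passed in any of the 4 comparisons. Beside that count, 5.33% of 11338 genes passed for mutants against all controls (352 higher and 252 lower, or 303 and 339 with median centring and 322 and 337 with quantile normalization), 4.89% against f/+; Zp3-cre, 4.84% against f/- and 0.0706% for f/- against f/+; Zp3-cre. At an unadjusted p under 0.05 there was 1 of 6 genes, Kdm1b, in each of the first 3 comparisons and 0 in the fourth. Of all genes, 2242 (19.8%), 2181 (19.2%), 2434 (21.5%) and 1584 (14%) reached that level, so 1 of 6 is near the background. The median log2 difference of the 6 was 0.135 against all controls, beside 0.0251 for all genes, and it was 0.0909 beside 5.22e-05 against f/+; Zp3-cre. Against f/- it was 0.462 beside 0.0674, and for f/- against f/+; Zp3-cre it was -0.17 beside -0.0694. Kdm3a had the widest differences between the control groups, with f/- lower than f/+; Zp3-cre by a log2 difference of -0.95 (-2.31 to 0.42; limma adjusted p = 0.532). The comparisons with controls share the same mutant libraries, and those with all controls share controls too. The 22 other settings for mutants against all controls left Kdm1a, Kdm3a, Kdm3b, Kdm4a and Kdm4b without a call wherever they were tested; a minimum mean of 2 RPKM removed Kdm3a and Kdm4b.

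**Figure D2:**
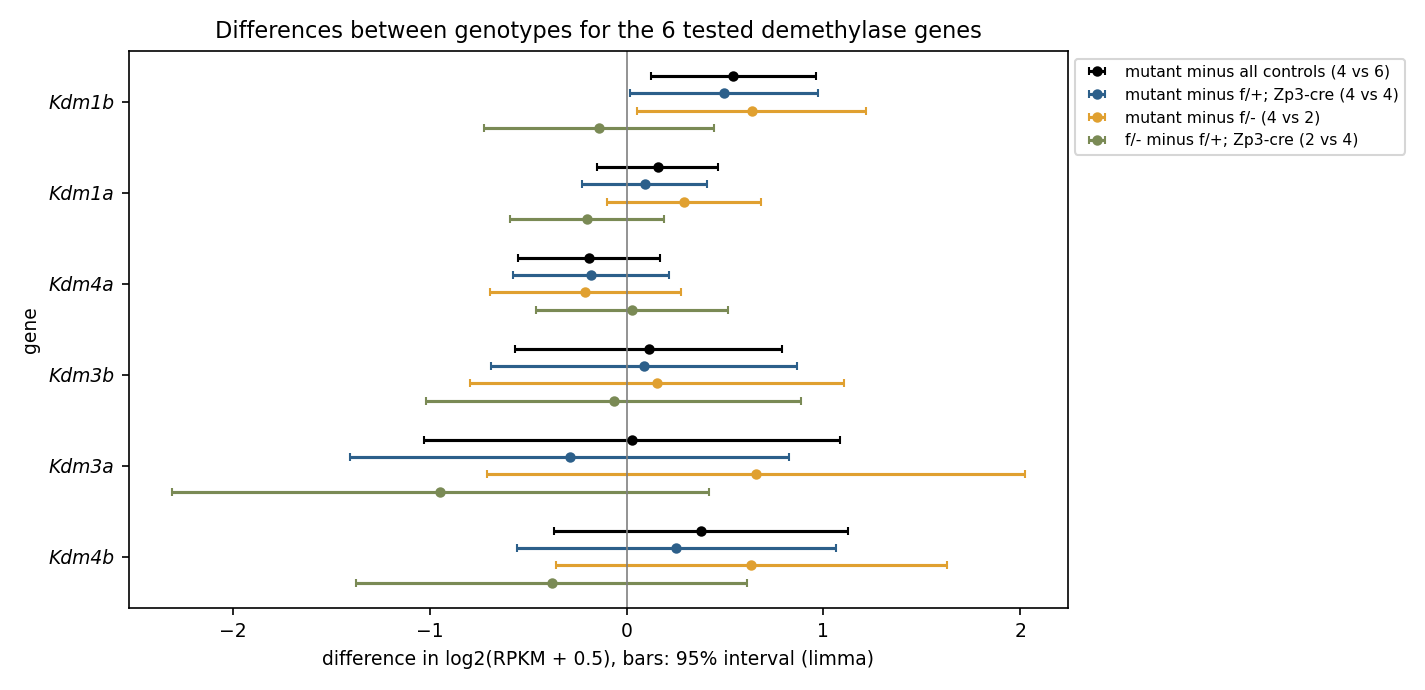
Log2 differences of the 6 tested genes with 95% intervals (limma) for mutants against all controls and for the other 3 comparisons. Kdm1b is the only gene whose interval lies above 0 against all controls, f/+; Zp3-cre and f/-. An interval off 0 means an unadjusted limma p under 0.05, reached by 19.8%, 19.2% and 21.5% of all genes in these comparisons. Kdm1b passed in none of them after adjustment.

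In controls the order of mean levels was Kdm1b, Kdm1a, Kdm4a, Kdm3b, Kdm3a, Kdm4b and Kdm4c. Kdm1b was 2.61 times Kdm1a and higher in 6 of 6 controls, Kdm1a was 1.36 times Kdm4a in 6 of 6, and Kdm3b was 4.13 times Kdm3a in 6 of 6. Each had p = 0.031 by the exact two-sided sign-flip permutation test, the smallest 6 libraries can give, and 0.0625 after adjustment over 6 pairs of neighbours. Kdm4a and Kdm3b (1.69 times, adjusted exact permutation p = 0.09375), Kdm3a and Kdm4b (2.14 times, 0.2812) and Kdm4b and Kdm4c (3.13 times, 0.15) held their order in 5 of 6. So no neighbouring pair passed the adjusted threshold. The mutants' means had the same order. Only 1 of 4 mutants had Kdm3a above Kdm4b, while 4 of 4 had Kdm1b above Kdm1a.

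The 7 levels summed to 91.0 ± 9.88 RPKM in mutants, 73.6 ± 1.89 in f/+; Zp3-cre and 90.4 and 53.2 in f/- controls. Kdm1b made up 55.4% to 63.7% of that sum in mutants, 50.4% to 53.6% in f/+; Zp3-cre and 60.2% and 42.1% in f/- controls. The mutants' share was above that of every f/+; Zp3-cre library, with f/- controls on either side. The share is built from the same Kdm1b values, so it is not separate from their order. In RPKM, 8.86% of all tested genes had every mutant above every f/+; Zp3-cre library. The KDM4 sum was 10.8 ± 2.31 RPKM in mutants and 11.7 ± 0.844 in f/+; Zp3-cre, with 11.0 and 12.7 in the f/- controls. The KDM3 sum was 8.54 ± 0.912 RPKM in mutants, 7.89 ± 0.591 in f/+; Zp3-cre and 13.2 and 2.94 in the f/- controls, which lay on either side of all other libraries. The ratio of Kdm4a to Kdm4b was 6.60 to 13.7 in mutants, 9.38 to 33.95 in f/+; Zp3-cre and 80.4 and 11.6 in f/- controls.

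**Figure D3:**
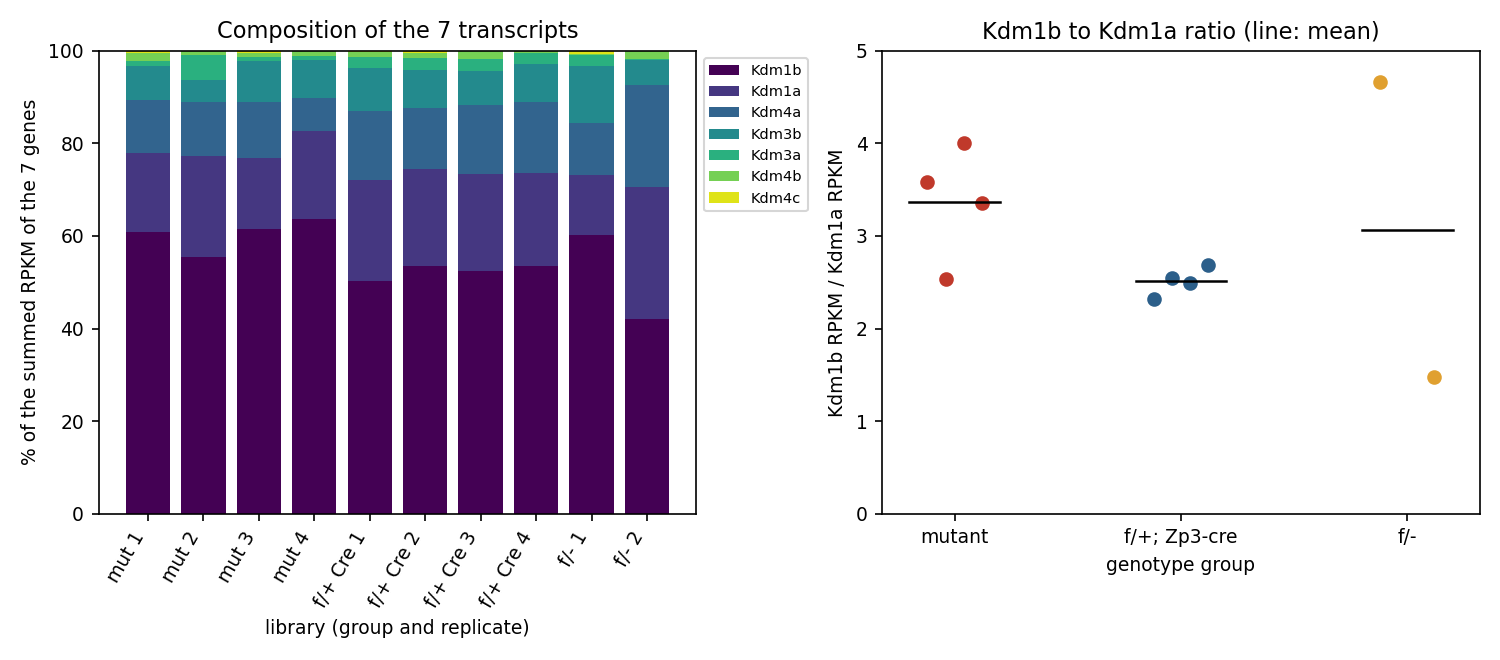
Left, share of each gene (percent) in the summed RPKM of the 7 genes, 1 stacked bar per library; right, the ratio of Kdm1b to Kdm1a RPKM per library, with lines at group means. Kdm1b takes 50.4% to 53.6% in f/+; Zp3-cre, and the f/- pair has the highest and the lowest ratio to Kdm1a, 4.67 and 1.47.

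Variation among replicates was uneven between groups. In f/+; Zp3-cre, the SD of log2(RPKM + 0.5) was 0.0259 for Kdm1b, 0.0782 for Kdm1a and 0.0921 for Kdm3a, all below the median of 0.191 over genes, while Kdm4b was above it at 0.438. In mutants Kdm3a (0.901) and Kdm3b (0.518) were above the median of 0.388, and in f/- controls Kdm3a (1.59), Kdm3b (1.26), Kdm1b (0.893) and Kdm4b (0.891) were above the median of 0.385. Over the 10 libraries, profiles most like each gene, by root mean square distance of standardised values, were Mcm7 (0.178) and Wipi2 (0.279) for Kdm1b, Nrde2 (0.226) and Secisbp2 (0.293) for Kdm1a, and Ube2d1 (0.258) and Amd2 (0.295) for Kdm3a. For Kdm3b they were Bfar (0.308) and Mtcp1 (0.309), for Kdm4a Nploc4 (0.303) and Tmtc4 (0.342), and for Kdm4b Senp1 (0.386) and Hat1 (0.397). The median distance over all genes was 1.28 to 1.35. The named genes were picked as the nearest of all tested genes, so their distances lie below that median by choice. Whether they vary together with the demethylases was not tested.

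Genes that share the substrates, partners or cofactors of these enzymes were read from the same fit against all controls, in which 5.33% of all genes passed. At that share, lists of this size would hold few calls or none, so a count of 0 is near the background. Of other histone demethylases, 14 of 18 were tested and 0 passed, with a median log2 difference of 0.147. Kdm6a, an H3K27 demethylase gene, stood at 73.5 ± 4.30 RPKM (mutants) and 60.6 ± 5.77 (controls), and Kdm6b at 44.0 ± 5.63 and 40.9 ± 7.09. Partners of KDM1A and KDM1B gave 0 of 13 (of 15 listed), median 0.133. Among them the histone deacetylase gene Hdac2 stood at 29.9 ± 6.59 RPKM (mutants) and 32.1 ± 3.83 (controls). The 2 flavin cofactor genes gave 0 calls; Rfk, which makes the flavin mononucleotide precursor, was at 24.1 ± 3.59 and 27.5 ± 11.2 RPKM.

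Of H3K9 methyltransferases, 8 of 9 were tested and 1 fell, Setdb1, the gene deleted by design; the median was -0.22. The counts in the following lists also stand beside 5.33% over all genes. Suv39h2 stood at 46.9 ± 6.94 RPKM (mutants) and 47.2 ± 4.12 (controls), and Suv39h1 at 20.4 ± 2.66 and 25.4 ± 5.63, the latter without a call. H3K9 readers gave 0 of 9 (of 10 listed, median 0.0775); Atf7ip, the cofactor of SETDB1, stood at 60.6 ± 5.82 RPKM (mutants) and 43.6 ± 7.90 (controls) (limma adjusted p = 0.0826). Mphosph8 stood at 130.3 ± 5.69 and 125 ± 23.5, and Uhrf1 at 91.5 ± 4.22 and 96.3 ± 7.74. Genes that make or use 2-oxoglutarate gave 0 of 12 (of 14 listed, median 0.146), with Dld at 55.6 ± 10.4 and 64.6 ± 9.30 RPKM. A list of imprinted genes linked to oocyte KDM1B and of DNA methyltransferases of imprint setting gave 0 of 6, median -0.0232. Its imprinted genes were Mest, at 91.4 ± 10.3 RPKM (mutants) and 79.3 ± 8.87 (controls), Grb10, Plagl1 and Impact. The others were Dnmt3a (23.6 ± 1.24 and 21.5 ± 1.66 RPKM) and Dnmt3l (26.6 ± 3.15 and 32.3 ± 9.80).

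**Figure D4:**
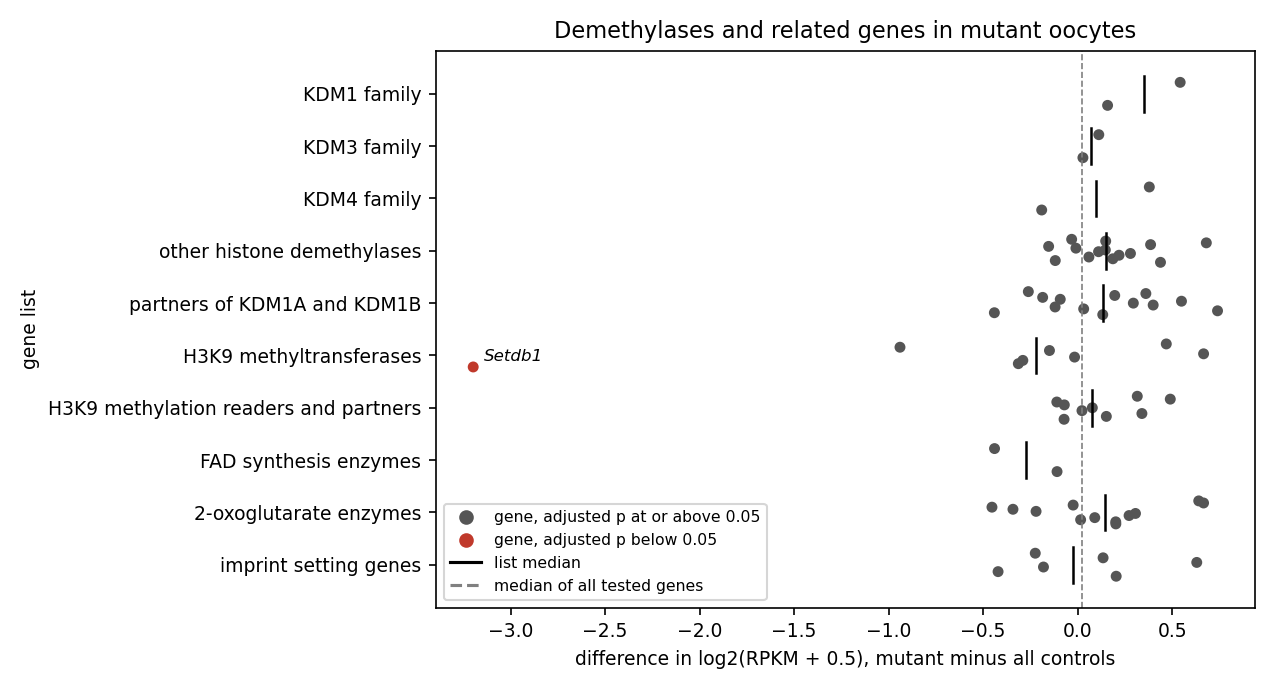
Log2 differences of mutants from all controls on the log2(RPKM + 0.5) scale for the tested genes of each family and list, 1 point a gene, with a line at each list's median and a dashed line at the median of all genes. Of the genes drawn, which leave out the cell type markers, Setdb1 has the 1 call, at -3.20. The row named imprint setting genes holds the imprinted genes Mest, Grb10, Plagl1 and Impact beside Dnmt3a and Dnmt3l.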

How the data were processed

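RNA-seq values of 10 libraries were used: 4 mutant, 4 f/+; Zp3-cre control and 2 f/- control libraries, each from a pool of 16 oocytes of 1 mouse. The authors deposited RPKM per RefSeq transcript; bcl2fastq 1.8.3, STAR and mm10 are named in the submitters' processing notes, and the tool that counted reads was not given in the sources used here. Per the labels' protocols, the cDNA went through NuGEN Ovation single-primer amplification, which adds spread, and libraries were not stranded. Depth was recovered from the spacing of low values, of which 67.8% to 71.3% lay within 0.1 of a whole read with GENCODE M21 lengths; since not all were whole, no count test was run.

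Symbols with several rows were represented by the highest row on average. The 11338 genes whose mean reached 0.5 RPKM were tested on log2(RPKM + 0.5), a scale that understates low genes, with limma 3.58.1 in R 4.3.3 (empirical Bayes trend, Benjamini-Hochberg over all genes, threshold 0.05, two-sided). Mutants against all 6 controls came from a model with 2 levels, and the other 3 comparisons from a model with 3 groups sharing 1 spread. Levels within controls were compared with exact two-sided sign-flip tests. Scripts were tested on simulated data. Named genes are the 7 members, the 2 genes most like each tested member, and from each list genes among its 3 highest and every called gene, of which some are not reported here; Dek and Gm26538 were named after their overlaps were seen. The members and lists were chosen with earlier results of these data known. Alternatives are in the closing section.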

Additional observations from a re-analysis of the deposited data

Results flagged for a closer look

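In 24 checks of single genes within groups (mutants, f/+; Zp3-cre and all controls), 4 libraries lay far from their group by Dixon's gap ratio; chance flags about 1 in 20 groups. Kdm3a in mutant replicate 2 (4.28 RPKM) had a gap ratio of 0.935 within the mutants, above the limit of 0.829 for 4 samples. Kdm3a in f/- replicate 2 (0.0456 RPKM, 16 reads) had a gap ratio of 0.892 within all controls, above the limit of 0.625 for 6 samples. Kdm4a in f/+; Zp3-cre replicate 2 (9.45 RPKM) had a gap ratio of 0.919 within its group. Setdb1 in f/+; Zp3-cre replicate 4 had a gap ratio of 0.63 within all controls, just above the limit.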

How the results depend on the processing

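For mutants against all controls, Kdm1b kept its sign in 22 of 22 alternatives and passed in 2 of them. Some settings could not change its estimate, which stayed at 0.542. These were no filter, a minimum mean of 2 RPKM, summed rows and a robust empirical Bayes fit. Of 130 results of the tested demethylases under alternatives, 120 kept direction and call, 2 passed newly and 8 changed sign. Settings that could not change an estimate count among the 120, so these tallies overstate how stable the results are. The sign changes of Kdm3a were -0.0321 with median centring, -0.0815 with quantile normalization, -0.478 with array weights and -0.287 against f/+; Zp3-cre alone, and leaving out 1 library gave -0.422 to 0.192; for Kdm3b that range was -0.0747 to 0.358. The causes were not tested. The order of the 7 control means was the same in 7 of 8 alternatives. The rows of Kdm4a share 2939 bases, so summing rows can count its reads more than once, while Kdm1a has 1 row. With all rows of a symbol summed, Kdm4a stood above Kdm1a. In that setting and with a pseudocount of 1 RPKM, 0 pairs of neighbours passed. With 1 control left out, the exact sign-flip permutation test can give no p below 0.0625. No pair could pass in those settings, so they say nothing about the differences between neighbours.

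The counts of calls moved more. For mutants against all controls (604), they were 399 with no filter, 1388 with array weights, 909 with f/+; Zp3-cre only, and 360 to 794 without 1 library. Against f/+; Zp3-cre (554), they were 226 to 905 without 1 library. Against f/- (549), they were 345 with no filter and 277 to 1467 without 1 library. For f/- against f/+; Zp3-cre (8), they were 21 with no filter and 0 to 840 without 1 library. In the last 3 comparisons the highest counts came from fits that left 1 f/- library. These fits say nothing of the spread within f/-. Their calls for f/- cannot be told from the deviation of that 1 library. Those counts are therefore not read as differences between genotypes. Same-numbered libraries had correlations of -0.0461 to 0.0308 in 8 pairs, beside -0.0809 to 0.0809 in 24 pairs with different numbers. These correlate deviations from group means, and those of the 2 f/- libraries mirror each other by construction. Low values therefore cannot exclude shared handling of same-numbered libraries. With a replicate block, counts of calls in the 4 comparisons were 376, 383, 223 and 1. The block changed no call of the demethylases, with Kdm1b at a log2 difference of 0.509. A 2 kb transcript under about 0.109 RPKM rests on fewer than 10 reads in the shallowest library. Kdm4c had 0 or 1 read in 3 libraries, which limits its values.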
